A study of Mus musculus with 14 samples.

Results

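The respiratory chain was followed here as 97 subunit genes of the mouse, out of 40481 genes in the bulk count table. They are all protein-coding genes whose symbols begin with the mitochondrial prefix mt-, with Nduf followed by a, b, c, s or v and a number, with Uqcr, with Cox4 to Cox8 or with Atp5, plus Sdha, Sdhb, Sdhc and Sdhd. The mitochondrial genome encodes 13 of them and the nucleus 84. Complexes were assigned by symbol, which places Ndufa4 and Ndufa4l2 in complex I, although Ndufa4 is now counted as a complex IV subunit. By complex, the mitochondrial and nuclear genes number 7 and 37 in complex I, 0 and 4 in complex II, 1 and 8 in complex III, 3 and 18 in complex IV, and 2 and 17 in complex V.

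Oxidative phosphorylation is carried out in the inner mitochondrial membrane. Complex I takes electrons from NADH and complex II from succinate, complex III passes them from ubiquinol to cytochrome c, complex IV passes them to oxygen, and complex V, the ATP synthase, uses the resulting proton gradient to make ATP. Complex II is built from nuclear genes alone, while the other complexes need subunits from both genomes, so that RNA made inside the organelle and RNA made in the nucleus have to supply 1 assembly. The phasic and tonic contraction of gut smooth muscle consumes ATP from this chain and from glycolysis.

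Bulk RNA-seq was made from the muscularis, the muscle layers stripped by hand from the gut wall, of colon and of jejunum. All mice were of strain C57BL/6. The genotype label "Carmn iKO" is called KO and "WT mTmG" is called WT. Carmn encodes a non-coding transcript found in smooth muscle, and mTmG is the name of a fluorescent reporter allele, which the KO labels do not mention. The colon libraries were tagged m1, t4 and t6 (KO) and t1, t6 and t7 (WT), and the jejunum libraries m1, t1 and t4 (KO) and t1, t6 and t7 (WT), which gives 3 libraries in each of 4 groups. Colon muscularis also gave 1 library of single nuclei per genotype. The sources used here do not say how or in which cells Carmn was deleted, how old the mice were or whether they were treated. Nothing in the labels says that libraries of 1 group came from separate animals, so p-values measure the spread between libraries.

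Total counts ranged from 24254905 (jejunum KO m1) to 44315104 (jejunum KO t4). Carmn itself was higher in the libraries labelled KO, at 494 ± 209 CPM (counts relative to the library size, mean ± SD, n = 3) against 258 ± 90.2 in colon and 908 ± 89.3 against 257 ± 62.0 in jejunum. Which part of the gene was deleted is not given, so this count goes against the label without settling it, and every direction below is between libraries as labelled. Colon KO t4 stood apart in its fibroblast markers (10290 CPM summed over 6 genes, against 2203 to 4807 in the other colon libraries). Jejunum KO m1 stood apart in its smooth muscle markers (93050 CPM, against 47730 to 52650 in the other jejunum libraries). Several results that rest on either library are given with and without it, and others with its value named. The summed level of 9 smooth muscle markers was 51360 to 74940 CPM in colon WT and 34640 to 47010 in colon KO, with no overlap, and all 9 had negative fold changes. In jejunum it was 47730 to 52650 in WT and 48930 to 93050 in KO, where m1 held the highest value. No smooth muscle marker was at 0 in any library. Of the other lists, the summed levels of B lymphocyte (6 markers, Pax5 and Ms4a1 at 0 in some libraries) and skeletal muscle markers (6, Myh1 and Myh4 at 0 in some) were also lower without overlap in colon KO, where 4 of 6 and 5 of 5 tested had negative fold changes. In jejunum KO, the summed levels of pericyte, enteric neuron and skeletal muscle markers were lower and that of macrophage markers was higher without overlap. All 8 neuron markers had negative fold changes in jejunum (median -0.37) and none of the 6 macrophage markers did (median 1.48). The pericyte and skeletal muscle sums did not stand for their lists, since only 1 of 6 and 1 of 5 tested markers had negative fold changes, with medians of 0.40 and 0.21. The part of these differences in the results on the respiratory chain was not tested. In tissue libraries, fewer cells of a type and less RNA per cell cannot be told apart.

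In colon the messenger RNA of the mitochondrial genome was much lower in the libraries labelled KO than in WT. In jejunum it was also lower, by an amount that depended on 1 KO library. The 13 mitochondrially encoded members held 0.746% (m1), 0.744% (t4) and 0.617% (t6) of all counts in colon KO. In colon WT they held 1.88% (t1), 2.26% (t6) and 1.55% (t7). The colon KO libraries lay close together and all below the lowest WT library, and their mean was 0.370 times the WT mean. In jejunum the share was 2.05% (m1), 1.49% (t1) and 1.16% (t4) in KO and 3.56% (t1), 2.69% (t6) and 2.80% (t7) in WT. The jejunum groups did not overlap either, and the KO mean was 0.519 times the WT mean. Within KO the m1 library was the highest. The log2 ratio of the KO to the WT share was -0.95 in jejunum and -1.19 without m1, beside -1.43 in colon. The 2 mitochondrial ribosomal RNAs, which are not members, overlapped between genotypes in both tissues. They held 0.00382% to 0.00891% of counts in colon KO and 0.00636% to 0.0112% in colon WT. In jejunum they held 0.0104% to 0.0233% in KO and 0.0186% to 0.0315% in WT.

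The 84 nuclear encoded members moved in the same direction by less. They held 0.507% (m1), 0.536% (t4) and 0.549% (t6) of counts in colon KO against 0.657% (t1), 0.755% (t6) and 0.577% (t7) in colon WT, which is 0.801 times the WT mean. In jejunum they held 0.725% (m1), 0.722% (t1) and 0.618% (t4) in KO and 0.985% (t1), 1.05% (t6) and 0.894% (t7) in WT, or 0.706 times the WT mean. Neither tissue overlapped on this scale, although colon WT t7 lay close above the KO libraries. The colon WT libraries also stood apart in 8 epithelial markers, which summed to 1518 (t1), 3368 (t6) and 89.4 (t7) CPM, the same order as their mitochondrial and nuclear shares. Colon KO libraries held 1055 (m1), 1192 (t4) and 2484 (t6) CPM of these markers, and their part in the shares was not tested. When library sizes were scaled by TMM (trimmed mean of M-values, which matches the bulk of genes between libraries), the nuclear sum in jejunum overlapped, with 8926 CPM in KO m1 above 8364 CPM in WT t7. The mitochondrial sum in jejunum then remained apart by a small margin (25210 CPM in KO m1 and 26220 CPM in WT t7).

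**Figure D1:**
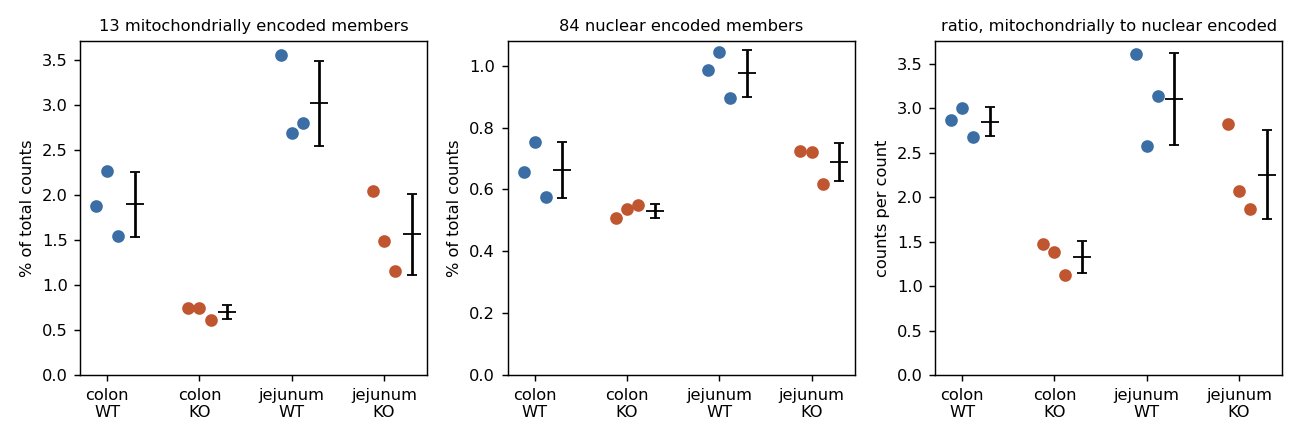
Share of total counts (%) held by the 13 mitochondrially encoded and the 84 nuclear encoded members, and the ratio of the former to the latter (counts per count), for each library. Points are libraries, and the bars give the group mean ± SD (n = 3). Colon KO libraries sit between 0.617% and 0.746% in the first panel, below all other libraries, and their ratio of 1.12 to 1.47 is apart from every other group.

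The ratio of mitochondrially to nuclear encoded counts does not depend on how libraries are scaled. In colon it was 1.47 (m1), 1.39 (t4) and 1.12 (t6) in KO and 2.86 (t1), 3.0 (t6) and 2.68 (t7) in WT. Each colon WT library thus had more than 2 mitochondrial counts per nuclear count and no KO library did. In jejunum the ratio was 2.83 (m1), 2.07 (t1) and 1.87 (t4) in KO and 3.61 (t1), 2.57 (t6) and 3.13 (t7) in WT. Here KO m1 lay above WT t6, so the jejunum groups overlapped. By complex, the colon ratio fell outside the WT range for each of the 4 mixed complexes, with KO over WT means of 0.434 (complex I), 0.487 (III), 0.445 (IV) and 0.354 (V). In jejunum only the complex I ratio was apart, by a narrow margin, at 2.53 to 3.68 in KO and 3.70 to 5.36 in WT.

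Of the 94 members tested in the fit over all 20886 genes, 1 passed an adjusted p of 0.05 (edgeR, Benjamini-Hochberg over all genes) in colon, and it was lower in KO. The background was 0.388% of all genes in either direction and 0.273% lower. That member was mt-Nd2 (chrM:3914-4951, GRCm38), a core proton-pumping subunit of complex I. It read 243 (m1), 317 (t4) and 204 (t6) CPM in colon KO. In colon WT it read 990 (t1), 1144 (t6) and 904 (t7) CPM. The highest KO library was far below the lowest WT library, and the log2 fold change was -1.99 (SE 0.30, adjusted p = 0.0250). The call was lost when colon KO t6, colon WT t1, colon WT t6 or jejunum WT t7 was left out (adjusted p 0.0519 to 0.118), with the fold change still between -1.83 and -1.98. In jejunum mt-Nd2 read 1152 (m1), 697 (t1) and 557 (t4) CPM in KO and 2379 (t1), 1520 (t6) and 1788 (t7) in WT. The groups were again apart, at -1.24 (SE 0.30), but the adjusted p of 0.116 missed the threshold.

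At an unadjusted p under 0.05, 36 of 94 members were lower in colon KO and none higher, beside 7.79% of all genes that were lower by that rule. Negative fold changes were found for 83 of 94, beside 49.7% of all genes. The median over members was a log2 fold change of -0.42 and over all genes 0.00. Without colon WT t6, 22 were lower at that p and the median was -0.29. Of the 94 members tested, 48 were lower without overlap between KO and WT libraries and 1 was higher. Over all genes these shares were 10.4% and 8.79%. The jejunum gave no member past the adjusted threshold, beside 0.215% of all genes in either direction and 0.091% lower. By unadjusted p, 36 passed there, 35 of them lower (5.7% of all genes) and 1 higher (Ndufb4). DESeq2 called 11 there (3.85% of all genes) and 20 in colon (4.6%), all of them lower. Fold changes in jejunum were negative for 90 of 94 (48.4% of all genes), with a median of -0.43. The count by unadjusted p and the median depended on single libraries. Without jejunum KO m1, 77 members were lower at an unadjusted p under 0.05 and the median was -0.67, while without KO t4 or KO t1 18 and 23 were lower. Of the 94 tested, 26 were lower without overlap (11.2% of all genes) with 1 higher (11%). The 97 members share RNA samples and complexes, so such counts describe these libraries and carry no test.

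All 13 mitochondrially encoded members had negative fold changes in both tissues. In colon each of the 13 had an unadjusted p under 0.05 and no overlap between genotypes, with a median log2 fold change of -1.64. In jejunum 8 had such a p and 5 did not overlap, with a median of -0.87, which became -1.46 without jejunum KO m1. Among the 7 complex I subunits the colon change ran from -1.20 for mt-Nd6, the member encoded on the other strand, to -3.0 for mt-Nd3. mt-Nd6 read 84.8 (m1), 155 (t4) and 134 (t6) CPM in colon KO and 303 (t1), 315 (t6) and 239 (t7) in WT. Its jejunum values overlapped, because WT t7 held 214 CPM while KO m1 held 312.

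mt-Cytb, the mitochondrial subunit of complex III that carries its haems b, read 1370 (m1), 1330 (t4) and 1120 (t6) CPM in colon KO and 3400 (t1), 3972 (t6) and 2946 (t7) in WT. Its change was -1.43 (SE 0.30, adjusted p = 0.0747). In jejunum it read 4792 (m1), 2680 (t1) and 2250 (t4) CPM in KO and 7118 (t1), 5353 (t6) and 5279 (t7) in WT, without overlap, at -0.87. Without jejunum KO m1 this was -1.29. The gene was thus lower in KO in both tissues.

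mt-Co1 is the catalytic subunit of complex IV. It had the most counts per length of all members, at 4536 CPM per kilobase in colon WT and 7237 in jejunum WT. This ranks counts and not RNA, because identical nuclear copies of mt-Co2, mt-Co3 and others, described below, also collected counts. The CPM of mt-Co1 in colon was 2697 (m1), 2794 (t4) and 2536 (t6) in KO and 6803 (t1), 8648 (t6) and 5575 (t7) in WT. The KO libraries were close to one another and all under the WT range. In jejunum KO m1 (9707 CPM) exceeded WT t7 (9329 CPM), so the groups overlapped, with a change of -0.76 (-1.17 to -0.56 under the alternatives run).

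mt-Atp8, a small subunit of complex V, had the lowest fold change in colon (-4.0, SE 1.08, adjusted p = 0.147). It read 0.109 (m1), 1.70 (t4) and 0.177 (t6) CPM in colon KO and 8.31 (t1), 16.9 (t6) and 5.19 (t7) in WT. In 2 of the 3 KO libraries it was thus close to the limit of what was counted, and leaving out 1 library moved the fold change between -6.13 and -3.38. Jejunum values ran from 4.98 to 25.8 CPM in KO and from 8.13 to 30.9 in WT and overlapped.

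**Figure D2:**
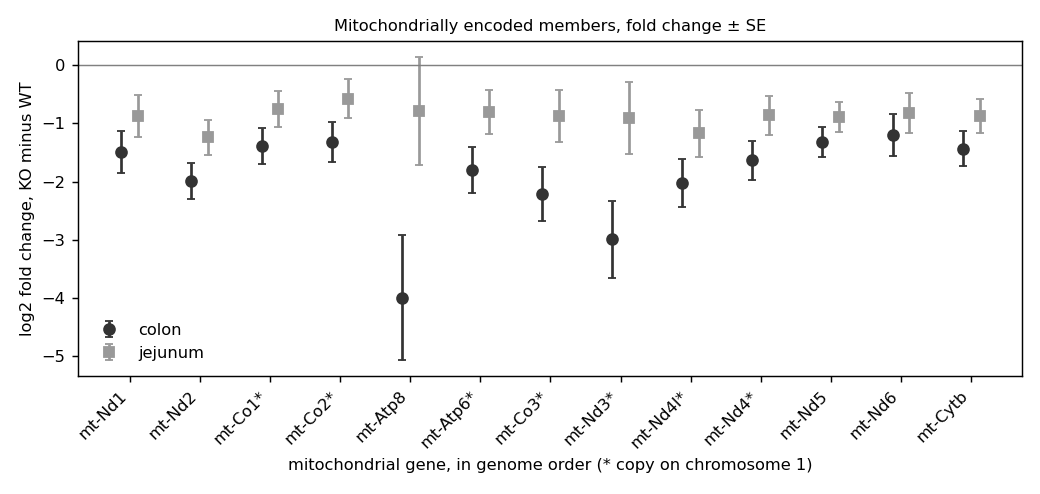
Log2 fold change ± SE (edgeR), KO minus WT, of the 13 mitochondrially encoded members in genome order. Circles are colon and squares jejunum, and asterisks mark members with an annotated copy on chromosome 1. All 26 values are below 0, from -0.57 (mt-Co2, jejunum) to -4.0 (mt-Atp8, colon).

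Counts of several mitochondrial members are uncertain because the nuclear genome holds near copies of them. On chromosome 1 of GRCm38, 7 unprocessed pseudogenes lie within 4663 bases (chr1:24611535-24616197, minus strand). Over the bases aligned, Gm10925 (a copy of mt-Atp6), Gm28661 (mt-Co2), Gm28437 (mt-Co3), Gm28438 (mt-Nd3), Gm28439 (mt-Nd4) and Gm10222 (mt-Nd4l) were 100% identical to their mitochondrial genes, and Gm29216 matched 31.3% of mt-Co1 at 99.8%. mt-Nd4l, a small membrane subunit of complex I, shows what this means for counting. The gene at chrM:9877-10173 (GRCm38, plus strand, 297 bases, from GENCODE M21) is given in full, and only the bases in capitals lie outside the annotated copy Gm10222 (chr1:24612407-24612700). The copy of mt-Nd4, Gm28439 (chr1:24611535-24612410), runs on across this edge. The capitals thus mark where an annotation ends and not bases known to differ from chromosome 1.
mt-Nd4l: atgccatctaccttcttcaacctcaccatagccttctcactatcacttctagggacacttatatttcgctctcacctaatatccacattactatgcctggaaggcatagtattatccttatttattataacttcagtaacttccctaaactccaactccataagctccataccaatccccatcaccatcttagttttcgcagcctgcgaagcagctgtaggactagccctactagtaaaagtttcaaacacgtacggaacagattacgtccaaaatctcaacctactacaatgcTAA
A read from any of the 294 bases in lower case cannot be placed by its letters.

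The copies did collect counts. For mt-Atp6 the copy held 1.39 to 1.79 times as many counts as the gene in each library, for mt-Co2 0.774 to 1.03, for mt-Co3 0.907 to 1.82, for mt-Nd3 0.645 to 2.09 and for mt-Nd4l 0.456 to 0.986. For the long genes mt-Nd4 and mt-Co1 the copies held no more than 0.0450 and 0.0214 of the counts of the gene. The copy of mt-Nd4 matches 63.6% of that gene, however. Reads that could not be placed may be in neither count, so how far these 2 genes were affected was not measured. Low CPM values of the first 5 genes are therefore not levels of their RNA. The comparison of genotypes was similar with and without them. Members without an annotated chromosome 1 copy were mt-Nd1, mt-Nd2, mt-Nd5, mt-Nd6, mt-Cytb and mt-Atp8. Together they differed by -1.44 on the log2 scale in colon and -1.01 in jejunum, without overlap in either. The 7 with a copy differed by -1.42 and -0.87, also without overlap. Adding the copies to all 13 gave -1.44 and -0.94. Copies were searched among annotated genes only, so the bases between Gm10925 and Gm28661 were not covered. mt-Atp8 lies between mt-Atp6 and mt-Co2 in the mitochondrial genome, and whether chromosome 1 holds a copy of it was not tested. Its low CPM may therefore not be a level of its RNA either. Less similar copies, of at least 90.7% identity, lie on other chromosomes. On chromosome 2, Gm13341 (97.6% identical to mt-Co2) held 0.378 to 0.702 of the counts of its gene and Gm13340 (97.6% identical to mt-Co1) 0.0389 to 0.0505. For mt-Nd2 the copy Gm13339 held at most 0.00317 of the counts of the gene.

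The nuclear members of complex I were lower in KO as a sum in colon, at 1350 (m1), 1508 (t4) and 1586 (t6) CPM against 1768 (t1), 1973 (t6) and 1680 (t7) in WT. In jejunum KO m1 (2774 CPM) lay above WT t7 (2309 CPM) and the sums overlapped. Of the 37 genes, 31 had negative fold changes in colon and 35 in jejunum, with medians of -0.32 and -0.38. None passed the adjusted threshold in either tissue.

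Ndufs1 (chr1:63143596-63176833), the large iron-sulphur subunit of the electron-transferring arm, was among the most even of them. It read 39.6 (m1), 41.9 (t4) and 39.4 (t6) CPM in colon KO and 58.4 (t1), 64.7 (t6) and 53.3 (t7) in WT. Its jejunum values were 61.9 (m1), 60.9 (t1) and 54.2 (t4) in KO and 93.0 (t1), 90.2 (t6) and 84.1 (t7) in WT. KO libraries were below WT libraries in both tissues, and the change on the log2 scale was -0.55 in colon (SE 0.13, adjusted p = 0.108) and -0.60 in jejunum (SE 0.13, adjusted p = 0.0932). Its exons share bases with Ino80dos and Eef1b2 on the opposite strand, and the sources used here do not state whether counting used the strand.

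Ndufb4, a membrane-arm accessory subunit, went the other way and was the member that lay higher in KO without overlap in both tissues. It read 27.9 (m1), 26.9 (t4) and 30.7 (t6) CPM in colon KO and 22.5 (t1), 24.7 (t6) and 19.7 (t7) in WT. In jejunum it read 47.5 (m1), 34.1 (t1) and 34.9 (t4) in KO and 29.3 (t1), 33.9 (t6) and 20.3 (t7) in WT. The jejunum margin between KO t1 and WT t6 was small. Neither the colon change of 0.35 (SE 0.21, adjusted p = 0.473) nor the jejunum change of 0.48 (SE 0.21, adjusted p = 0.353) passed the threshold.

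Complex II, the succinate dehydrogenase that also belongs to the citrate cycle, was lower in KO in both tissues without overlap as a sum. The colon sums were 315 (m1), 318 (t4) and 348 (t6) CPM in KO and 441 (t1), 487 (t6) and 383 (t7) in WT. In jejunum the values were 444 (m1), 464 (t1) and 390 (t4) CPM in KO and 643 (t1), 648 (t6) and 561 (t7) in WT. All 4 of its genes had negative fold changes in both tissues.

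Sdhc (chr1:171127165-171150603), a membrane anchor subunit of complex II, had the lowest fold change of the 4. It read 61.1 (m1), 74.3 (t4) and 80.0 (t6) CPM in colon KO and 111 (t1), 106 (t6) and 107 (t7) in WT. Its jejunum values were 103 (m1), 113 (t1) and 95.8 (t4) in KO and 186 (t1), 202 (t6) and 153 (t7) in WT. The groups were apart in both tissues, and jejunum KO was at about the level of colon WT. The change was -0.59 (SE 0.16, adjusted p = 0.141) in colon and -0.79 (SE 0.16, adjusted p = 0.0754) in jejunum.

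Sdha, the flavin subunit that oxidises succinate, read 162 (m1), 125 (t4) and 147 (t6) CPM in colon KO and 191 (t1), 206 (t6) and 167 (t7) in WT. In jejunum it read 157 (m1), 205 (t1) and 170 (t4) CPM in KO and 244 (t1), 237 (t6) and 238 (t7) in WT. Neither tissue overlapped. Sdhb, the iron-sulphur subunit, overlapped in both tissues, with means of 63.1 ± 8.28 (KO) and 81.1 ± 14.9 (WT) CPM in colon and 103 ± 30.2 and 122 ± 19.5 in jejunum (SD, n = 3). Sdhd, the other anchor, overlapped in colon (38.0 to 54.5 CPM in KO, 42.8 to 78.0 in WT) and not in jejunum (46.1 to 52.3 in KO, 70.6 to 78.3 in WT).

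The 8 nuclear genes of complex III all had negative fold changes in both tissues, with medians of -0.32 in colon and -0.39 in jejunum, and none passed the adjusted threshold. Uqcrc1, a core protein of the complex, read 99.5 (m1), 122 (t4) and 127 (t6) CPM in colon KO and 144 (t1), 146 (t6) and 135 (t7) in WT. Jejunum libraries read 153 (m1), 151 (t1) and 131 (t4) CPM in KO and 199 (t1), 206 (t6) and 187 (t7) in WT. It thus lay below WT in both tissues by a modest distance.

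Complex V was lower in KO as a sum in both tissues without overlap. Its 17 nuclear genes summed to 1598 (m1), 1910 (t4) and 1834 (t6) CPM in colon KO and 2330 (t1), 2665 (t6) and 2141 (t7) in WT. In jejunum they summed to 2864 (m1), 2468 (t1) and 2151 (t4) CPM in KO and 3671 (t1), 3899 (t6) and 3204 (t7) in WT. Fold changes were negative for 16 of 17 genes in colon and 17 of 17 in jejunum, with medians of -0.42 and -0.36. Atp5b, the catalytic beta subunit, stood at 485 ± 55.2 in colon KO, 696 ± 48.5 in colon WT, 713 ± 68.7 in jejunum KO and 1164 ± 99.5 in jejunum WT (SD, n = 3). Its changes of -0.52 (adjusted p = 0.210) and -0.71 (adjusted p = 0.130) were larger than the spread between libraries and missed the adjusted threshold. The genes of the proton-carrying c ring encode the same mature protein. Of these, Atp5g3 fell outside the WT range in jejunum (125 to 164 CPM in KO, 201 to 266 in WT) and not in colon. Atp5g1 and Atp5g2 overlapped in both tissues.

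Complex IV, assigned by symbol and so without Ndufa4, was the exception among the nuclear sums in colon. Its sum was 907 (m1), 1058 (t4) and 1183 (t6) CPM in KO and 1154 (t1), 1409 (t6) and 1048 (t7) in WT, and the groups overlapped. In jejunum they overlapped as well, through KO m1 at 1898 CPM and WT t7 at 1484. As shares of total counts, without TMM scaling, the jejunum sums of complexes I, III and IV were lower in KO without overlap, and complex IV in colon still overlapped. Of 15 genes tested, 11 had negative fold changes in colon and 13 in jejunum, and in colon none reached an unadjusted p of 0.05.

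**Figure D3:**
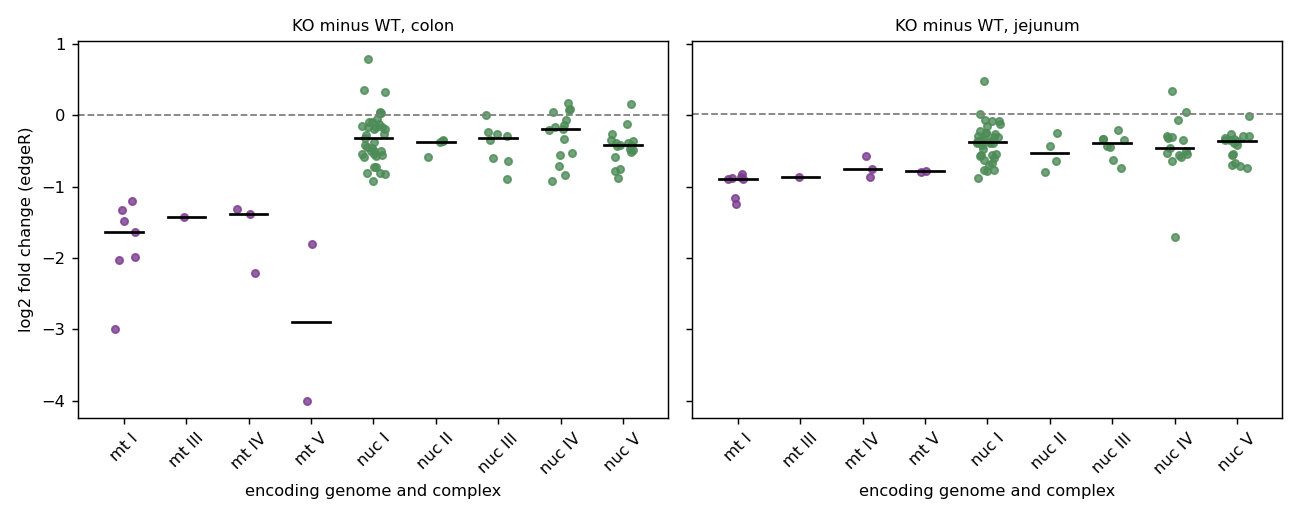
Log2 fold changes (edgeR), KO minus WT, of the 94 members tested, by encoding genome (mt, mitochondrial; nuc, nuclear) and complex, in colon and jejunum. Points are genes and black bars are medians. Mitochondrially encoded medians lie lower than the nuclear ones, at -1.64 against -0.36 over all complexes in colon and -0.87 against -0.38 in jejunum.

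Several complex IV subunits come as pairs of a general and a muscle or condition-dependent form. The general forms were abundant. Cox4i1 read 132 to 169 CPM in colon KO and 140 to 186 in WT, Cox6a1 120 to 196 and 140 to 176, Cox6b1 60.5 to 81.0 and 67.1 to 105, and Cox8a 139 to 201 and 178 to 212, all with overlap in colon. In jejunum Cox8a did not overlap, at 174 to 229 CPM in KO and 237 to 339 in WT. Their alternatives were scarce in this muscle. Cox6a2, the heart and skeletal muscle form, was at or below 0.208 CPM in every library and was not tested, and neither were Cox7b2 and Cox8c. Cox6b2 ran from 1.95 to 6.08 CPM over all 12 libraries, and its KO and WT libraries overlapped in both tissues.

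Cox7a1, the heart and skeletal muscle form of subunit VIIa, had the lowest fold change of all members in jejunum. It read 1.78 (m1), 3.85 (t1) and 2.29 (t4) CPM in jejunum KO and 9.24 (t1), 9.06 (t6) and 7.67 (t7) in WT. The 3 WT libraries were close together and all well above KO, at -1.71 (SE 0.45, adjusted p = 0.151). In colon KO it read 2.78 (m1), 2.08 (t4) and 2.38 (t6), and in WT 5.50 (t1), 6.54 (t6) and 1.72 (t7). WT t7 was under every KO library, so the colon groups overlapped. Without it the colon change was -1.29, against -0.93 with it. DESeq2 called the jejunum change and edgeR did not. The summed level of skeletal muscle markers was also lower in jejunum KO (40.7 to 93.1 CPM, 115 to 128 in WT), but only 1 of the 5 tested had a negative fold change, and whether Cox7a1 moved with such cells was not tested. Its partner Cox7a2, the general form, was lower in colon KO without overlap (40.8 to 45.9 CPM, against 52.3 to 82.7 in WT). In jejunum it read 66.2 to 126 CPM in jejunum KO and 88.5 to 135 in WT with overlap. Cox7a2l, which takes part in joining complexes III and IV, was at 112 to 192 in KO and 94.4 to 135 in WT, also with overlap.

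Cox8b, the muscle form of subunit VIII, overlapped between genotypes in both tissues, from 0.625 to 2.47 CPM in colon and from 0.965 to 6.48 in jejunum. Cox4i2, the form tied to low oxygen, read 1.93 (m1), 2.14 (t1) and 1.83 (t4) CPM in jejunum KO and 2.80 (t1), 3.96 (t6) and 2.48 (t7) in WT, without overlap (-0.64, SE 0.32, adjusted p = 0.415). In colon the genotypes overlapped at 1.47 to 2.38 CPM.

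Ndufa4l2, a hypoxia-linked relative of Ndufa4, had the highest fold change of all members in colon (0.79, SE 0.65, adjusted p = 0.630), and 1 library made it. It read 1.39 (m1), 7.81 (t4) and 1.22 (t6) CPM in colon KO and 2.38 (t1), 1.26 (t6) and 2.34 (t7) in WT. Only t4 was high, and without t4 the change was -0.61. In jejunum the values were 1.83 (m1), 3.65 (t1) and 2.20 (t4) in KO and 5.53 (t1), 5.54 (t6) and 3.17 (t7) in WT. Ndufa4 itself, placed in complex I here by its symbol, was lower in colon KO without overlap. It read 43.4 to 70.3 CPM against 91.1 to 109 in WT.

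**Figure D4:**
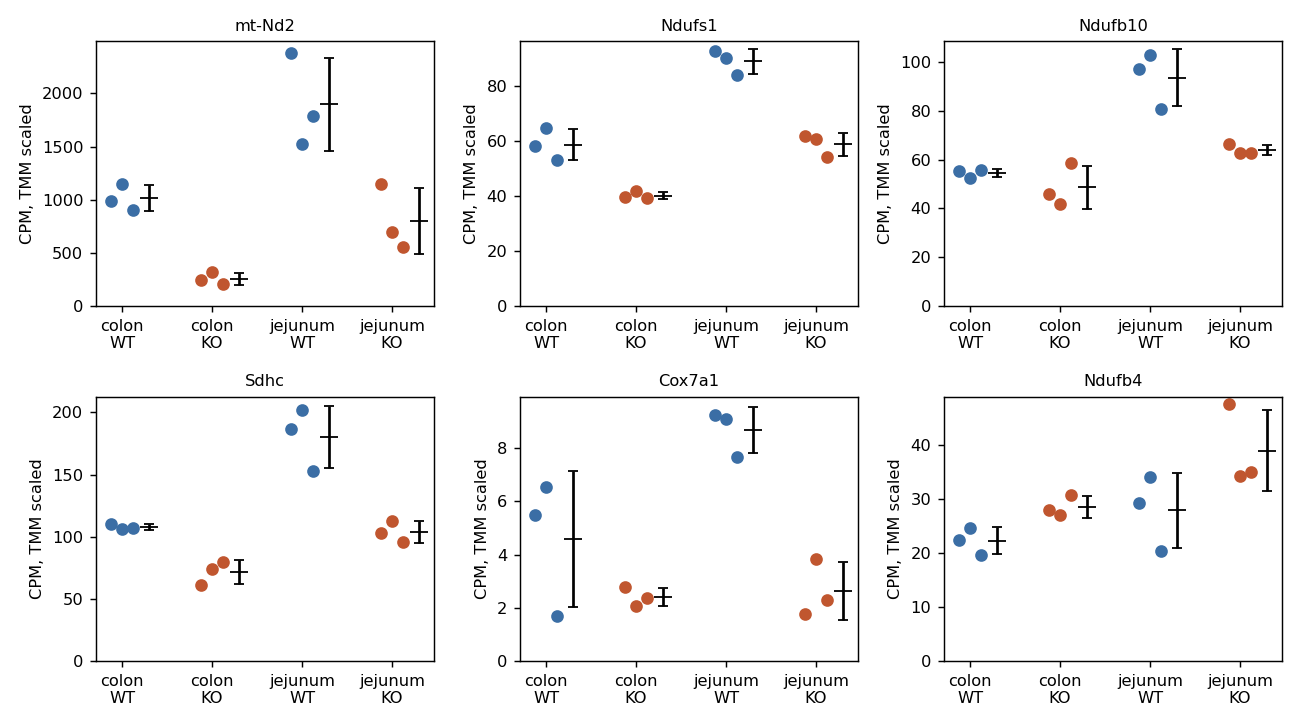
CPM (TMM scaled) of mt-Nd2, Ndufs1, Ndufb10, Sdhc, Cox7a1 and Ndufb4 in each of the 12 libraries. Points are libraries and bars give the mean ± SD (n = 3 per group). Sdhc and Ndufs1 in KO lie below WT in both tissues, Cox7a1 in jejunum WT (7.67 to 9.24 CPM) lies above all other libraries, and Ndufb4 is higher in KO.

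Colon held less respiratory chain RNA than jejunum in both genotypes. Fold changes colon minus jejunum were negative for 94 of 94 members in WT, beside 45.7% of all genes, and for 92 of 94 in KO, beside 47.8%. The medians were -0.65 and -0.68, the latter -0.43 without jejunum KO m1. In WT, 3 members passed the adjusted threshold (edgeR), all lower in colon, beside 1.56% of all genes in either direction and 0.862% lower. In KO 1 passed, also lower, beside 1.29% and 0.833%. WT libraries of the 2 tissues did not overlap for 68 of the 94, all lower in colon (11.7% of all genes, with 11.2% higher). KO libraries did not overlap for 62, also all lower (9.64%, with 9.93% higher). At an unadjusted p under 0.05, 59 were lower in colon WT (5.74% of all genes) and 62 in colon KO (9.26%). Without jejunum KO m1 the KO count was 41. DESeq2 called 18 in WT (5.53%) and 34 in KO (6.83%). These comparisons share their groups with those of KO and WT.

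The 3 in WT were Ndufb10 (-0.78, SE 0.16, adjusted p = 0.0332), Sdhc (-0.74, SE 0.16, adjusted p = 0.0434) and Ndufs1 (-0.60, SE 0.13, adjusted p = 0.0450). Ndufb10 (chr17:24722060-24724478), a membrane-arm subunit, read 55.3 (t1), 52.6 (t6) and 55.6 (t7) CPM in colon WT and 97.1 (t1), 103 (t6) and 80.5 (t7) in jejunum WT. In KO it read 45.9 (m1), 41.7 (t4) and 58.5 (t6) CPM in colon and 66.1 (m1), 62.9 (t1) and 62.5 (t4) in jejunum. Colon was below jejunum in both genotypes. All 3 calls were lost when any of colon WT t1, t6 or t7 or jejunum WT t1 or t6 was left out, and Ndufs1 also without colon KO m1 or jejunum WT t7. Without jejunum KO m1 there were 20 members called, all lower in colon, beside 2.57% of all genes. In KO the call was mt-Nd2 (-1.65, SE 0.30, adjusted p = 0.0272), which was lost without colon KO m1, colon KO t6 or jejunum KO t1, while 6 were called without colon KO t4, beside 2.84% of all genes. The member least different between WT tissues was Ndufb2 (-0.17), with 13.3 ± 1.03 CPM in colon and 15.02 ± 0.682 in jejunum (SD, n = 3).

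By summed level, smooth muscle markers overlapped between WT colon and WT jejunum, mesothelial, pericyte and interstitial cell of Cajal markers were lower in WT colon, and neuron, glia and lymphatic endothelial markers were higher there, without overlap. In KO, smooth muscle, pericyte, mesothelial and skeletal muscle markers were lower in colon and lymphatic, neuron and epithelial markers higher. Their part in the tissue difference was not tested.

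Whether the KO minus WT change itself differed between tissues was tested as an interaction. No member passed the adjusted threshold, and no gene did (0% of 20886). At an unadjusted p under 0.05 there were 3 of 94, beside 4.16% of all genes in either direction and 2.85% with a negative difference. mt-Nd3 (-2.10) and mt-Atp8 (-3.23, SE 1.38) were negative, and Ndufs7 (0.60) was positive. mt-Atp8 was near the limit of counting in colon KO, and mt-Nd3 has a chromosome 1 copy. DESeq2 called none of the members and 0.182% of all genes. All 13 mitochondrial members had a more negative change in colon, with a median difference of -0.75, while the nuclear members had a median of 0.01 and 53 of 94 members in all were negative, beside 52.1% of all genes. These values depended on single libraries. Without jejunum KO m1 the mitochondrial median was -0.23, the nuclear median 0.32 and 16 of 94 were negative, while 30 were negative without colon WT t6 and 28 without jejunum WT t7. Total counts in place of TMM moved the nuclear median to 0.10.

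Other genes of mitochondrial energy use were read from fixed lists. Of 46 assembly factors, 44 were tested and none passed the adjusted threshold in any comparison, with 35 negative in colon and 35 in jejunum (KO minus WT medians -0.20 and -0.17). Of 18 citrate cycle genes, 17 were negative in each tissue, with medians of -0.39 and -0.45. The 1 that passed was Sucla2, a subunit of succinyl-CoA ligase, which fell in colon KO to 30.2 (m1), 34.6 (t4) and 28.7 (t6) CPM from 57.7 (t1), 66.9 (t6) and 56.3 (t7) in WT, by 0.95 on the log2 scale (adjusted p = 0.0389). The KO libraries were all far below WT. Between WT tissues Fh1, the fumarase, was lower in colon (log2 fold change -0.74, adjusted p = 0.0342), as were Pdha1 of pyruvate dehydrogenase (-0.71, adjusted p = 0.0441) and Coq7 of ubiquinone synthesis (-1.20, adjusted p = 0.0128). Between KO tissues Idh3a, a subunit of isocitrate dehydrogenase, and Sucla2 were lower in colon, both by -0.77 (adjusted p = 0.0433 and 0.0486).

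Electron carriers and exchangers (16 genes, 15 tested) had medians of -0.31 in colon and -0.40 in jejunum for KO minus WT, with none past the threshold. Genes of mitochondrial transcription, RNA care and biogenesis (19 genes) had medians of -0.24 and -0.19 and none passed. Among them Lrpprc, which stabilises mitochondrial messenger RNA, changed by -0.69 in colon (SE 0.17, adjusted p = 0.123) and -0.35 in jejunum, and Polrmt, the mitochondrial RNA polymerase, by 0.15 and -0.10. Glycolysis genes (16) had medians of -0.01 and -0.02 with a wide range. It ran from -0.555 (Ldhb) to 1.36 (Slc2a1) in colon and from -1.01 (Ldhb) to 0.81 (Hk2) in jejunum. The glycolysis gene past the threshold was Ldhb, lower in WT colon than in WT jejunum (-1.46, adjusted p = 0.0182).

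Members are short and abundant RNAs, and such genes can shift together between libraries. Protein-coding genes of under 2000 exon bases with a mean log2 CPM of at least 5, members left out, had a median of 0.07 in colon and 0.29 in jejunum (377 genes). Cytosolic ribosomal protein genes, which resemble the nuclear members in length and level, had medians of 0.13 and 0.63 (81 genes), with no gene among them lower at an unadjusted p under 0.05. The nuclear members had medians of -0.36 and -0.38, and whether length or level had a part in this was not tested. These lists were chosen after the members' values had been seen.

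Nuclei of colon muscularis gave a different picture from bulk colon. After filtering, 2510 WT and 1623 KO nuclei remained of 3476 and 2164 barcodes, with medians of 1627 and 1932 unique molecular identifiers (UMIs) and 11 barcodes found in both libraries. There was 1 library per genotype, so no test was made, and the intervals are exact Poisson 95% intervals that cover counting error only. The mitochondrially encoded members summed to 2106 CPM (2069 to 2143) in WT and 11760 (11670 to 11860) in KO. The nuclear members summed to 1634 (1602 to 1667) in WT and 2070 (2030 to 2110) in KO. Both values were higher in the library labelled KO, opposite to bulk colon. All 13 mitochondrial members shared this order, from 4.17 and 16.8 CPM for mt-Nd6 (WT and KO) to 521 and 2450 CPM for mt-Co1.

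Mitochondrial transcripts are made outside the nucleus, and their UMIs were spread unevenly over the nuclei. No mitochondrial UMI was found in 34.7% of WT and 15% of KO nuclei, and more than 5% of UMIs were mitochondrial in 27 WT (1.08%) and 135 KO nuclei (8.32%). The 10% of nuclei with the most held 74.5% (WT) and 80.2% (KO) of all these UMIs. Without nuclei over 5% the mitochondrial sums were 1755 and 4607 CPM and the nuclear sums 1621 and 1775.

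Nuclei were clustered and named from marker lists, and the values of a class depend on how the nuclei were filtered. Mesothelial-like nuclei, of the outer lining of the gut wall, were 14.0% of WT and 21.5% of KO nuclei and held 49.7% and 74.8% of mitochondrial UMIs. Their mitochondrial sum was 11720 CPM (11430 to 12010) in WT and 44040 (43620 to 44460) in KO, and their nuclear sum 2510 and 3994. The class was made of clusters 9 and 11. Cluster 11, led by Slurp1, Lgals7, Slpi and Krt14, held 71 WT and 141 KO nuclei and had sums of 28840 and 61790 CPM. Without mesothelial-like nuclei the mitochondrial sums of the remaining nuclei were 1163 and 3706 CPM, and the nuclear sums came closer, at 1548 (1515 to 1581) and 1589 (1550 to 1629).

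Smooth muscle-like nuclei (769 WT, 403 KO) had a mitochondrial sum of 811 CPM (772 to 852) in WT and 1638 (1572 to 1706) in KO. Their nuclear sum was 1698 (1641 to 1756) in WT and 1450 (1387 to 1514) in KO, so that here the nuclear members were lower in KO, as in bulk. The class was made of clusters 0, 1 and 5. Most WT nuclei were in cluster 5 (408, led by Colec10 and Nek10) and most KO nuclei in cluster 0 (202, led by Fgf7 and Fn1). The nuclear sum was lower in KO in clusters 0 (1693 and 1487 CPM) and 5 (1748 and 1466) and nearly equal in cluster 1 (1389 and 1397), where the mitochondrial sum was also lower in KO (1389 and 686). The mitochondrial direction within smooth muscle-like nuclei was thus not the same in all 3 clusters.

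Epithelial-like nuclei had a mitochondrial sum of 2179 CPM in WT and 5846 in KO, macrophage-like nuclei 4062 and 10350, enteric glia-like nuclei 915 and 1254, and enteric neuron-like nuclei 662 and 511. The neuron-like class was thus the named class with less in KO.

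**Figure D5:**
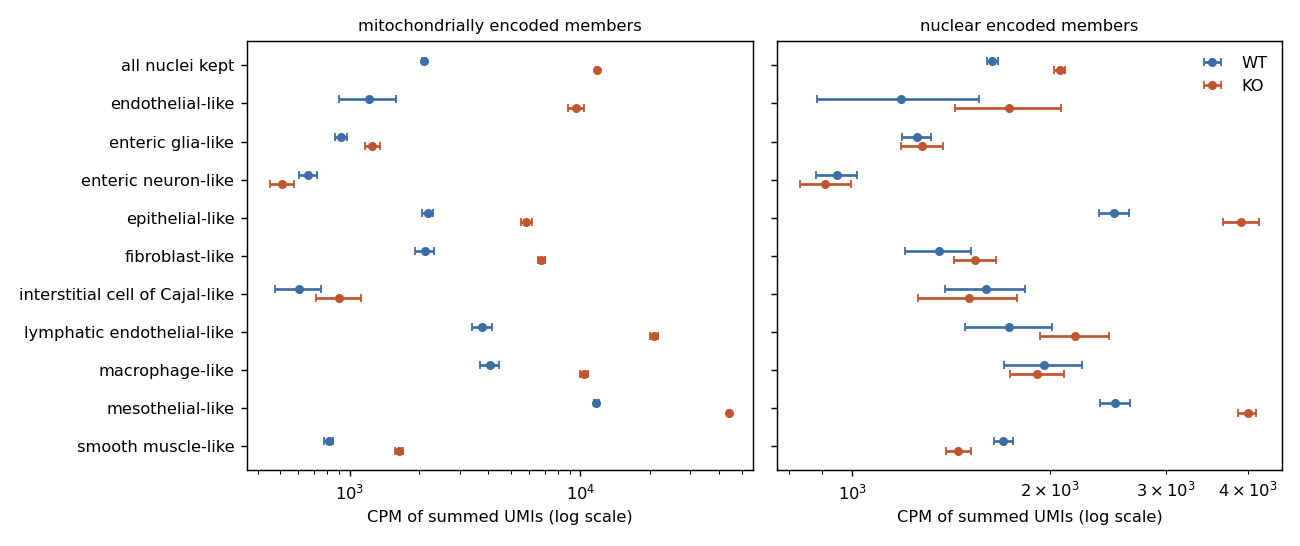
CPM of summed UMIs (log scale) of mitochondrially and nuclear encoded members in all nuclei kept and in each named class, in the WT and the KO library. Points are 1 library each, and bars are exact Poisson 95% intervals, which cover counting error only. Mesothelial-like nuclei have the highest mitochondrial sums (11720 in WT and 44040 in KO). Values of the fibroblast-like, lymphatic endothelial-like and interstitial cell of Cajal-like classes moved by several times between filters.

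By complex, the nuclear sums over all nuclei were 664 CPM in WT and 789 in KO for complex I, 180 and 174 for complex II, 133 and 183 for complex III, 235 and 380 for complex IV and 422 and 544 for complex V. Complex II was the complex whose interval (169 to 191 in WT, 162 to 186 in KO) overlapped. Of the 81 nuclear members with a UMI in both libraries, 71 were higher in the KO library and 10 lower. The share of all genes higher in the KO library was not computed, so this count has no background. It also pools all nuclei, and mesothelial-like nuclei were 14.0% of WT and 21.5% of KO nuclei. Without mesothelial-like nuclei the nuclear sums were 1548 CPM in WT and 1589 in KO, and the count by member was not repeated. The members with the most UMIs in WT were not typical of the 71. Ndufs4 stood at 126 CPM (118 to 136) in WT and 100.1 (91.5 to 109) in KO, Sdha at 106 (97.9 to 115) and 108 (98.5 to 117), and Ndufs1 at 76.6 (69.8 to 83.96) and 68.6 (61.5 to 76.4). Atp5b was at 68.5 (62.0 to 75.4) and 78.0 (70.4 to 86.3). Sdhc, which was lower in bulk KO, was among the 10, at 43.7 (38.5 to 49.3) and 32.6 (27.7 to 38.0). Cox7a1 had 1 UMI in WT nuclei and 3 in KO, too few for any comparison, and Cox8b had 4 and 0.

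Promoters were read from RefSeq (GRCm38.p6, 250 bases before to 50 after the start) for 66 of the 97 genes, 71 promoters in all. Factors known to drive nuclear respiratory genes bind simple motifs, which were searched on both strands. The NRF1 palindrome was present in 5 of 71 member promoters (7.04%) and in 0.974% of all 32544 promoters, and its core GCATGCGC, which the palindrome contains, in 14.1% and 2.73%. The ETS motif CCGGAAG, which GABPA can bind, was present in 22.5% and 8.91%, and the YY1 motif in 5.63% and 0.636%. CCAAT was found in 42.3% and 37.4%, GGGCGGG in 32.4% and 25.7%, CACGTG in 8.45% and 7.17% and TATAAA in 11.3% and 13.6%. A match describes letters and not a bound site.

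The 4 promoters shown are the 250 bases before the start. They are of a general form (Cox6a1) and muscle forms (Cox7a1 and Cox8b) of different complex IV subunits. The fourth is of Ndufb10, the complex I gene with the smallest p between WT tissues. Capitals mark the motifs listed above. Cox6a1, the general form, is at chr5:115348959-115349208 (minus strand), Cox7a1 at chr7:30183921-30184170 (plus), Cox8b at chr7:140900447-140900696 (minus) and Ndufb10 at chr17:24724424-24724673 (minus).
Cox6a1: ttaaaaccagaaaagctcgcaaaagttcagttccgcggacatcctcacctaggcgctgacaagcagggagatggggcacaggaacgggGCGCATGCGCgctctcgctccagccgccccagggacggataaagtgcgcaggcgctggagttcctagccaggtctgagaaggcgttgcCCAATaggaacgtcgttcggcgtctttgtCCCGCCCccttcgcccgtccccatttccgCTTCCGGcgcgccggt
Cox7a1: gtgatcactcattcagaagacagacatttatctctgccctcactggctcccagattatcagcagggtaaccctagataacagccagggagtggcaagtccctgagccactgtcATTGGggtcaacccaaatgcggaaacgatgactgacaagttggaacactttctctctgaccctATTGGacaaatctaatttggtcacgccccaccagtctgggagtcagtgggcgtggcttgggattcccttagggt
Cox8b: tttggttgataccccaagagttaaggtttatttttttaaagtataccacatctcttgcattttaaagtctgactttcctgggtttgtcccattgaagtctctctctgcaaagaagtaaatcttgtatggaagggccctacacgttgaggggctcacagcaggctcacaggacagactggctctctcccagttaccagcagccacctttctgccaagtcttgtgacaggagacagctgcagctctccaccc
Ndufb10: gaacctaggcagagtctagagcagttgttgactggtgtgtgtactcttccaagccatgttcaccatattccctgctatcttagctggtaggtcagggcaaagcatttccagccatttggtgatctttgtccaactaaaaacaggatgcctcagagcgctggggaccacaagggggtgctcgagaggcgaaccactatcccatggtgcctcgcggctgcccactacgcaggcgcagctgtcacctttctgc
Cox6a1 carried the NRF1 palindrome, a CCAAT box, a GC box and the ETS motif. Cox7a1 carried CCAAT boxes, and the other 2 carried none of the 8 motifs searched in these windows. The longer promoter of Cox8b, which runs past the start, held TATAAA. Among the general partners, Cox7a2 matched none of the 8 motifs and Cox8a matched the ETS and CCAAT motifs.

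The nuclei libraries also recorded open chromatin, with regions called by the authors' pipeline separately in each library. A called region overlapped 66 of 71 member promoters (93.0%) in WT and 65 (91.5%) in KO, against 36.4% and 30.7% of all promoters. The Cox6a1 promoter had a region in both libraries, with 63.0 transposase cuts, scaled to the cuts of the library, in WT and 86.8 in KO, and so did Ndufb10, with 71.0 and 94.4. The Cox8b promoter had none in either. The Cox7a1 promoter overlapped a region in WT, with 44.4 cuts on the same scale (133 unscaled cuts, in 65 nuclei). It overlapped none in the list of KO, which held fewer regions in all (26493 against 35003). The promoters of Ndufa1 and Ndufb11 also had a region in WT only, and those of Ndufa11 and Ndufa13 in KO only.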

How the data were processed

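Raw counts per gene were deposited by the authors for 12 bulk libraries. The submitters' processing notes name STAR 2.0.4b, featureCounts 1.4.5, Subread and edgeR and the builds GRCm38 and mm10, with no role for each. The nuclei were processed with Cell Ranger ARC per the file headers, and their deposited counts of genes and of open regions stand in 1 matrix per library. All gene counts in the nuclei files were even numbers, while 11.6% and 11.5% of region counts were odd, so gene counts were halved here, an inference from the values. Identifiers matched GENCODE M21 for 99.65%.

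All 12 bulk libraries were fitted together with 1 mean per group in edgeR 4.0.16 (R 4.3.3; TMM, filterByExpr, robust quasi-likelihood F test, two-sided), with Benjamini-Hochberg adjustment over the 20886 genes tested, of 31526 with a count. Of 97 members 94 were tested; 39 share exon bases with another gene. Levels are CPM on TMM-scaled library sizes unless a share of total counts is named. Sums over members carry no test. On simulated counts for the colon comparison (20282 genes), the fit called 200 of 200 genes changed 4-fold and 15 unchanged genes. The changed genes were drawn from well-counted genes, and the spread between libraries was a set value, not one estimated from these data. The check did not assess smaller changes, such as those of the nuclear members. Replicates of a group differed by more than sampling noise. Total counts, other scalings and filters, DESeq2 1.42.0, limma 3.58.1, a replicate block and leaving out libraries were alternatives.

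Nuclei with 500 to 25000 UMIs and at least 300 genes were kept, and the 5% with the highest Scrublet scores were left out (132 WT, 85 KO). Scrublet's own calls marked 6 WT and 1 KO nuclei here, and 205 and 0 before the upper UMI limit was set. The 5% rule was already in use before that limit. The nuclei kept were clustered with scanpy 1.11.5. This filter was the last of 3 versions, chosen with the results of the earlier versions in view. Clusters 15 and 18 were left unnamed.

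Named members are those past the threshold in any comparison, the highest and lowest fold change per comparison, the isoform pairs, Sdha to Sdhd and the mitochondrial genes. Atp5b, Uqcrc1, Ndufs4 and Ndufs7 were chosen after their values were seen. The members and all lists were chosen with earlier results of these data known.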

Additional observations from a re-analysis of the deposited data

How the results depend on the processing

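Counts of members called depended on the test, and so did the share of all genes called, given in parentheses. In colon, KO against WT, 1 member was called by the reported fit (0.388%), 7 with total counts (0.450%), 2 with a filter of 1 CPM (0.674%), 20 with DESeq2 (4.6%), 4 with limma voom (0.455%) and 0 with the 6 colon libraries alone (0%). In jejunum 0 were called (0.215%) and 11 with DESeq2 (3.85%). Between WT tissues 3 were called (1.56%), 0 with total counts (1.29%), 18 with DESeq2 (5.53%) and 20 with the 6 WT libraries alone (4.66%). Between KO tissues 1 was called (1.29%), 5 with no filter (0.860%), 8 with a filter of 1 CPM (2.33%), 34 with DESeq2 (6.83%), 3 with limma voom (1.46%) and 0 with the 6 KO libraries alone (0.0202%). Leaving out 1 library gave 0 to 11 in colon (11 without jejunum KO m1, 0.827%), 0 to 1 in jejunum (mt-Co2, without jejunum KO m1, 0.120%), 0 to 20 between WT tissues (20 without jejunum KO m1, 2.57%) and 0 to 6 between KO tissues (6 without colon KO t4, 2.84%). The cause was not tested. Total counts brought the median of all genes between KO tissues to 0.14, from 0.03.

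Libraries with the same tag in both tissues correlated at -0.163 to 0.1, and those with different tags at -0.39 to 0.348. These ranges overlap, so they cannot settle whether shared tags pair the libraries. With the tag as a replicate block, 0 members were called between WT tissues (0.139% of all genes) and 0 between KO tissues (0.0144%). KO against WT within a tissue cannot be estimated under this block.

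Fold changes turned sign for Ndufa4l2 between KO tissues (-0.20 with limma voom; -0.98 to 0.82 when leaving out a library), for Ndufa4l2 in colon (-0.61 to 1.24) and for Cox4i2 in colon (-0.25 to 0.10). Of the other named genes' values under alternatives, 612 kept their direction and side of the threshold, 17 passed it and 34 no longer did.

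In nuclei, the KO over WT ratio of the mitochondrial sum was 4.37 with all barcodes, 3.92 thinned to 500 UMIs, 2.63 without nuclei over 5% mitochondrial UMIs, 3.19 without mesothelial-like nuclei, 5.24 with Scrublet's own calls and 5.15 with no upper UMI limit. In smooth muscle-like nuclei it was 2.31 with no upper limit, 1.75 thinned and 1.62 without nuclei over 5%. The nuclear ratio was 1.21 with all barcodes, 1.18 thinned, 1.10 without nuclei over 5% and 1.03 without mesothelial-like nuclei. Choices on 5%, mesothelial-like nuclei, doublets, chromosome 1 copies and comparison lists were made after seeing the data. Over the 3 filter versions the fibroblast-like mitochondrial sum (WT and KO) was 836 and 876, 2241 and 945, and 2121 and 6769 CPM, so its direction is not settled, and the KO sum of lymphatic endothelial-like nuclei ran from 3566 to 20930 CPM. All barcodes by cell class were not run.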
